A study of Mus musculus with 24 samples.

Results

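The metalloproteinases and inhibitors described here are the 9 genes Mmp8, Mmp9, Mmp25, Mmp14, Adam8, Adam10, Adam17, Timp1 and Timp2, taken by gene symbol from both deposited count tables, where all 9 were found among 18474 and 22505 rows. They were followed in 24 neutrophil libraries in 10 groups. All mice were NOD.c3c4, a strain used as a model of autoimmune biliary disease. Mice called treated were injected intravenously 10 times with PDC166-NP, nanoparticles that carry a peptide-MHC complex. The first table holds neutrophils of treated liver (n = 2), untreated liver (n = 2), treated blood (n = 2) and untreated blood (n = 3). The second table holds liver neutrophils of mice that all received the nanoparticles. They were also given a blocking antibody against IL-10, IL-35 or TGFb (anti-IL10, anti-IL35 and anti-TGFb, 2 libraries each), against IL21R or a target spelled GCF in the labels (anti-IL21R and anti-GCF, 3 libraries each), or an isotype control antibody (3 libraries). The labels give neither the age of the mice nor how the neutrophils were isolated. They do not say whether replicates come from separate mice, and the p-values reflect the spread among these libraries, part or all of which may be technical.

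Matrix metalloproteinases (MMPs) are zinc enzymes, made as inactive precursors, that cut collagen, gelatin and other matrix proteins. Neutrophils store MMP8 and MMP9 in granules that they fill while maturing in the marrow. ADAM proteases sit in the membrane and release the outer parts of surface proteins such as TNF, L-selectin and Notch. TIMPs are secreted inhibitors that block the active site, and human neutrophils are known for releasing MMP9 free of TIMP1.

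In the mouse build mm10, by the positions deposited with the counts, the 9 protein-coding genes lie at chr9:7558456-7568485 (Mmp8), chr2:164940780-164955850 (Mmp9), chr17:23629458-23645269 (Mmp25), chr14:54431612-54445364 (Mmp14), chr7:139978932-139992562 (Adam8), chr9:70678997-70780229 (Adam10), chr12:21323509-21373632 (Adam17), chrX:20870166-20874735 (Timp1) and chr11:118301069-118355740 (Timp2). All but Mmp25 have the same position in GENCODE, whose exons gave the gene lengths used here. Of the 9, 8 had an entry in the RefSeq promoter table (GRCm38.p6), which gives 250 bases before and 50 after the start site, and Mmp9 had none. The promoters of Mmp8, Mmp25 and Adam8 are shown because their RNA had the most negative log2 fold changes of the members with anti-GCF, beside that of Adam10, whose RNA rose there. They lie at chr9:7558179-7558478 (plus strand), chr17:23645220-23645519 (minus strand), chr7:139992513-139992812 (minus strand) and chr9:70678732-70679031 (plus strand). Capitals mark matches, on either strand, to the motifs named after them.
Mmp8: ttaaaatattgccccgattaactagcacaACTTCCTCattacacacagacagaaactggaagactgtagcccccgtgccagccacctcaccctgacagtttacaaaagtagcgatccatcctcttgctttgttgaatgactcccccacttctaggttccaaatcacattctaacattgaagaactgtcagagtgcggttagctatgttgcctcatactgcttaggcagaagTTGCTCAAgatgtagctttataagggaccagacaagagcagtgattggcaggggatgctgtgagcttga
Mmp25: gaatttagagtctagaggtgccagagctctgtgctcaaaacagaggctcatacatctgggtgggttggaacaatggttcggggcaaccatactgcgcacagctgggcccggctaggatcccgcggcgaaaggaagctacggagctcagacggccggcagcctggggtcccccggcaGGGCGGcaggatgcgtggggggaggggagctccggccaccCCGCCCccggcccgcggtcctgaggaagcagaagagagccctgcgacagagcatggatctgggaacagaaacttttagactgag
Adam8: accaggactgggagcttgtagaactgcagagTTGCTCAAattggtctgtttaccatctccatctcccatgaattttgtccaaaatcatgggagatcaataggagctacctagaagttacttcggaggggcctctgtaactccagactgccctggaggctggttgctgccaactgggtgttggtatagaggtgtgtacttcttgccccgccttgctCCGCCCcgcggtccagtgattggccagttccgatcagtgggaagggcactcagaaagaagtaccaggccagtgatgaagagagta
Adam10: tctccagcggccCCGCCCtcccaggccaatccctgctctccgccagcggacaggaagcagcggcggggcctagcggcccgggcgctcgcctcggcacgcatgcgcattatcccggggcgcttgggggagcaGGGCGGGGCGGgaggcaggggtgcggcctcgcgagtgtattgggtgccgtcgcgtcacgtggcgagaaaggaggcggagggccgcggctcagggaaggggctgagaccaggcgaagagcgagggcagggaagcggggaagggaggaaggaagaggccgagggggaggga
The motifs were an AP-1 site (TGANTCA, in 7.81% of 32851 promoters), an NF-kB site (in 0.411%), a C/EBP site (TTGCNNAA, 10.8%), a PU.1 site (GAGGAAGT, 3.20%) and a GC box (GGGCGG, 35.7%). The Mmp8 window held a C/EBP match 19 bases before the start and a PU.1 match 221 bases before it, and no GC box. The Adam8 window held a C/EBP match 219 bases and a GC box 35 bases before the start. Mmp25 held 2 GC boxes, at 74 and 34 bases, and Adam10 held 3, at 238, 119 and 114 bases. The AP-1 and NF-kB letters were not found in the 8 windows. G and C made up 46% of the bases in Mmp8, 63.3% in Mmp25, 52.3% in Adam8 and 73.3% in Adam10. A match describes the letters and is not a binding site.

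Levels are counts scaled by TMM to library size (CPM). Differences are log2 fold changes with their standard error from edgeR's quasi-likelihood F test, p-values are adjusted by Benjamini-Hochberg over all genes tested in a comparison, and 0.05 was the threshold. Libraries held 34.7 to 46.4 M counts in the first table and 23.6 to 47.5 M in the second. All 20 neutrophil markers were present in every group, but their summed level was uneven: 159520 to 163270 CPM in treated liver, 33496 to 35008 in untreated liver, 86942 to 90000 in treated blood and 119440 to 274190 in untreated blood, where replicate 3 held the high value. It was 23101 to 29134 CPM in anti-GCF libraries, 42462 to 171580 in the other cytokine antibody groups and 124270 to 146960 in isotype libraries. The 15 hepatocyte markers summed to 9549 to 11930 CPM in untreated liver and to at most 689 in any other group. The 13 Kupffer cell and macrophage markers summed to 6091 to 11101 CPM in anti-GCF libraries, to 318 to 2507 in anti-IL35 libraries and to at most 924 in any other group. In bulk RNA, fewer cells of a type and less RNA per cell cannot be told apart. Fold changes of the members are therefore also given after scaling each library to the median ratio of its 20 neutrophil markers. The treated and untreated libraries of the first table also carry separate ranges of library numbers, so treatment and preparation cannot be told apart.

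Per kilobase of exon, Mmp8 and Mmp9 were the most abundant members in treated liver, at means of 2006 and 1738 CPM per kb. Adam8 followed at 197, Mmp25 at 97.5, Timp2 at 78.4, Adam10 at 26.4 and Adam17 at 15.3 CPM per kb. Mmp14 at 0.0851 and Timp1 at 0.0275 CPM per kb rested on 41 and 2 reads over both libraries. In anti-GCF libraries the order was Mmp9 (334), Mmp8 (167), Adam8 (70.1), Adam10 (39.2), Timp2 (38.8), Adam17 (19.5), Mmp25 (12.6), Mmp14 (6.71) and Timp1 (2.90 CPM per kb), so Adam10 stood above Mmp25 there. Of the summed CPM per kb of the 7 protease genes, Mmp8 made up 48.3% to 50.0% in treated liver and 22.3% to 27.2% in untreated liver. It made up 20.1% to 28.1% in anti-GCF libraries and 43.9% to 52.0% in isotype libraries.

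**Figure D1:**
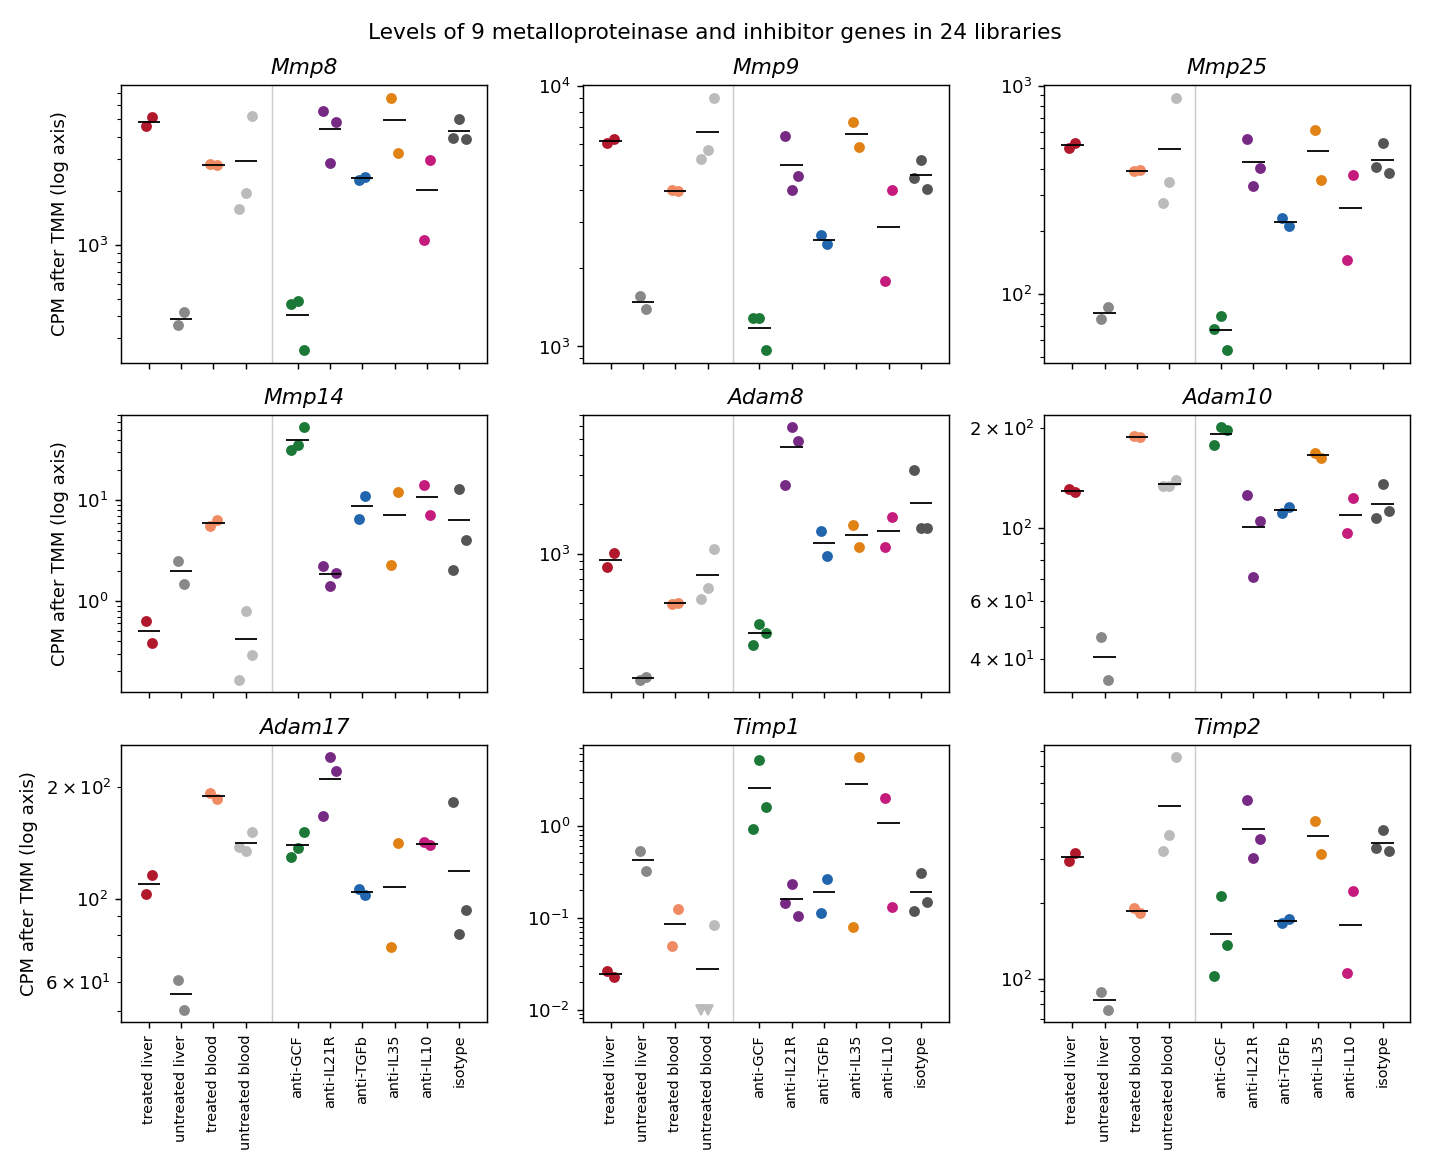
Level of each of the 9 genes in each of the 24 libraries, in CPM after TMM on a log axis; points are libraries, horizontal bars are group means, and triangles at the bottom of the Timp1 panel are libraries with 0 reads. Mmp8, Mmp9, Mmp25, Adam8 and Timp2 are low in untreated liver and in anti-GCF libraries, while Mmp14 is high in anti-GCF libraries, at 31.5, 35.5 and 53.1 CPM.

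Treated liver was compared with untreated liver for the change under nanoparticle therapy. Of the 8 genes other than Timp1, 7 rose in treated liver and 1 fell, where 64.1% of all genes tested passed (27.8% higher and 36.3% lower). The groups did not overlap for any of the 8, as for 86.3% of all genes tested. Timp1 was also called lower and its groups did not overlap, but it passed the filter on low counts only through untreated liver and so had to differ, and it is not counted for any comparison that involves untreated liver.

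Mmp8, the neutrophil collagenase, was at 4587 and 5144 CPM in treated liver, against 355 and 418 CPM in untreated liver. Both treated livers lay far above both untreated ones (3.65 ± 0.53 log2, adjusted p = 0.000252). Mmp9, gelatinase B, was at 6054 and 6248 CPM in treated liver, against 1562 and 1392 CPM in untreated liver (2.06 ± 0.27 log2, adjusted p = 0.000153). Mmp25, a leukocyte MMP anchored to the membrane by a lipid, was at 503 and 531 CPM in treated liver, against 75.7 and 86.6 CPM in untreated liver (2.67 ± 0.48 log2, adjusted p = 0.000951). These groups were also apart. Within each library the log2 ratio of Mmp8 to Mmp9 per kb, which no scaling between libraries can alter, was 0.14 and 0.26 in treated liver, against -1.59 and -1.19 in untreated liver. Mmp8 was thus the more abundant of the pair per kb in treated liver and the less abundant in untreated liver.

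The ADAM genes rose as well. Adam8, an ADAM protease of leukocytes, was at 829 and 1002 CPM in treated liver, against 169 and 177 CPM in untreated liver (2.40 ± 0.31 log2, adjusted p = 0.000138). Adam10, the main sheddase of Notch receptors, was at 131 and 128 CPM in treated liver, against 46.6 and 34.7 CPM in untreated liver (1.67 ± 0.17 log2, adjusted p = 3.18e-05). Adam17, the TNF-converting enzyme, was at 104 and 116 CPM in treated liver, against 60.5 and 50.6 CPM in untreated liver (0.98 ± 0.16 log2, adjusted p = 0.000493). Each of the 3 was higher in both treated livers. Adam17 shares 311 exon bases with Iah1 on the opposite strand, and whether counting used strand is not given in the sources used here. Iah1 itself stood at 14.6 and 13.1 CPM in treated liver, against 132 and 199 CPM in untreated liver, the opposite direction. Adam8 shares 46 exon bases with the antisense transcript Gm16201, which averaged under 10 CPM in treated liver and under 1 CPM in untreated liver.

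Of the inhibitors, Timp2 rose, and the direction of Timp1 could not be tested fairly. Timp2 inhibits many MMPs and also helps MMP14 to activate MMP2. It was at 294 and 317 CPM in treated liver, against 89.3 and 76.0 CPM in untreated liver. The difference was 1.89 ± 0.36 log2 (adjusted p = 0.00138). Timp1 had 1 and 1 reads in treated liver, against 23 and 14 in untreated liver, a ratio of 0.0570 with a 95% counting interval of 0.00666 to 0.221. It passed the filter only through untreated liver, so its direction is not counted as a result. Mmp14, a collagenase that spans the membrane, was at 0.634 and 0.381 CPM in treated liver, against 2.52 and 1.47 CPM in untreated liver (-1.98 ± 0.63 log2, adjusted p = 0.0207). Timp1 and Mmp14 were both low in every liver library of this table, and Mmp14 was lower in treated liver. The Mmp14 call was lost without treated liver replicate 1 (adjusted p = 0.0515), treated liver replicate 2 (0.141) or untreated liver replicate 1 (0.162), and that of Timp1 without any one of the 4 libraries (0.0534 to 0.135). Hepatocyte markers were highest in the same untreated libraries, with 15 of 15 lower in treated liver, where 36.3% of all genes tested were lower. The part of these markers in the Timp1 and Mmp14 differences was not tested.

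Scaled to the neutrophil markers, Mmp8 kept a log2 fold change of 2.03 (adjusted p = 0.000492), Mmp25 of 1.05 (0.0122), Adam8 of 0.78 (0.00421) and Mmp9 of 0.44 (0.0420). Timp2 at 0.26 and Adam10 at 0.0517 no longer passed (adjusted p = 0.303 and 0.858), and Adam17 turned to -0.64 (adjusted p = 0.0238). Mmp14 stood at -3.59. This scaling shifted the median over all genes by -1.62, and 8.89% of the genes called were higher in treated liver under it, against 43.4% under TMM. The 9 genes of a specific granule list, none of them a member here, all rose in treated liver under TMM, where 27.8% of all genes did, with a median log2 fold change of 3.801. They ranged from 1.17 for Hp to 4.78 for Ltf, and their values under the marker scaling are not given.

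**Figure D2:**
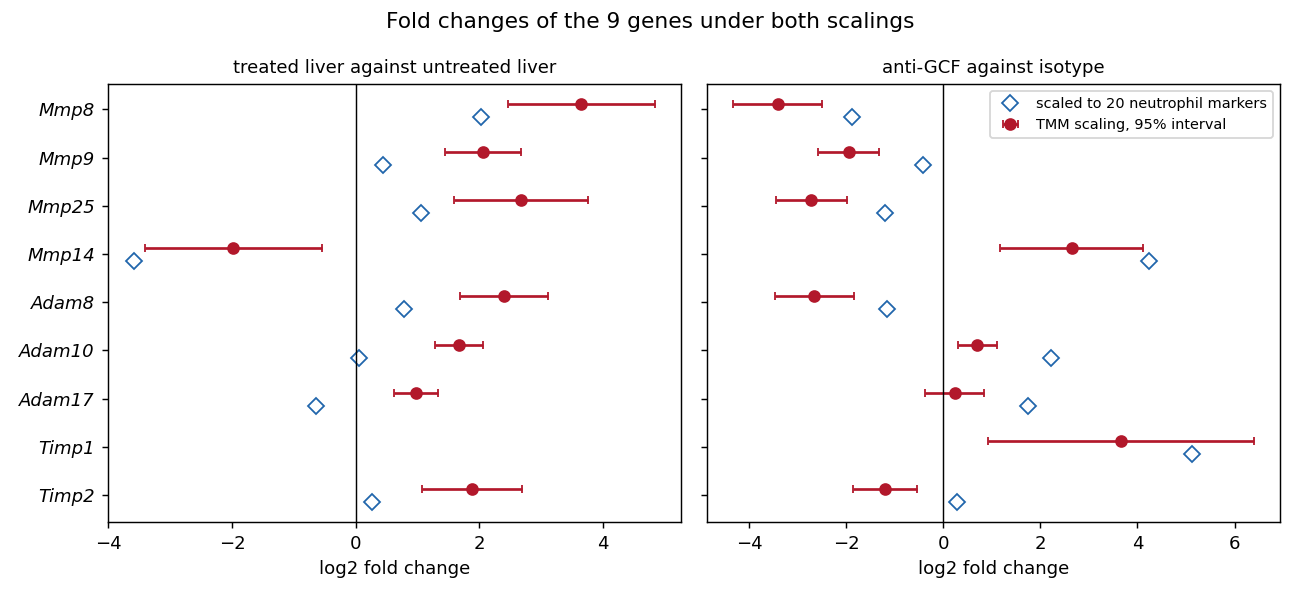
Log2 fold change of the 9 genes in treated over untreated liver (left) and in anti-GCF over isotype libraries (right); filled circles with bars are TMM-scaled estimates with 95% intervals, open diamonds are estimates after scaling each library to 20 neutrophil markers, and Timp1 is left out on the left because treated liver held 2 reads. In treated liver Adam10 moves to 0.0517 and Adam17 to -0.64 under the marker scaling, while Mmp8 stays at 2.03 there and at -1.88 in anti-GCF libraries.

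Treated blood was compared with untreated blood for the change in circulating neutrophils. Of the 9 genes, 3 rose and 2 fell in treated blood, where 33.6% of all genes tested passed (17.4% higher and 16.2% lower). Groups did not overlap for 6 of the 9, against 61.1% of all genes. Of the genes called in the whole table, 51.9% were higher under TMM and 93.1% under the neutrophil-marker scaling. Mmp14 was at 5.57 and 6.39 CPM in treated blood, against 0.165, 0.801 and 0.289 CPM in untreated blood. No treated library came near the untreated range (3.81 ± 0.57 log2, adjusted p = 0.00167), and the direction was opposite to that in liver. In the same libraries the endothelial markers summed to 275 to 276 CPM in treated blood, against 48.6 to 91.2 in untreated blood, and the platelet markers to 1640 to 1675 CPM, against 301 to 616. Their part in the Mmp14 difference was not tested.

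Mmp8 was at 2805 and 2788 CPM in treated blood, against 1590.3, 1937 and 5257 CPM in untreated blood. Untreated blood replicate 3 lay far above the other libraries, and the groups overlapped (-0.0662 ± 0.44 log2, adjusted p = 0.921). Without that library the value was 0.66 (adjusted p = 0.00644). The log2 ratio of Mmp8 to Mmp9 per kb was 0.0377 and 0.0412 in treated blood, against -1.18, -1.01 and -0.24 in untreated blood, the same direction as in liver. Mmp9 was at 3988 and 3954 CPM in treated blood, against 5251, 5708 and 9053 CPM in untreated blood (-0.75 ± 0.25 log2, adjusted p = 0.0431). It was below every untreated library, but the call was lost without treated blood replicate 2 (adjusted p = 0.200) or 3 (0.209), and the value under the marker scaling was -0.0439. Timp2 was at 191 and 183 CPM in treated blood, against 323, 374 and 759 CPM in untreated blood (-1.37 ± 0.33 log2, adjusted p = 0.0131). It too was below every untreated library and lost the call without treated blood replicate 2 (adjusted p = 0.0852) or 3 (0.101).

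Adam10 was at 189 and 188 CPM in treated blood, against 134, 134 and 139 CPM in untreated blood (0.48 ± 0.15 log2, adjusted p = 0.0362). Adam17 was at 193 and 185 CPM in treated blood, against 138, 134 and 152 CPM in untreated blood (0.42 ± 0.14 log2, adjusted p = 0.0470). Neither pair of groups overlapped, and both calls passed narrowly. They were lost without untreated blood replicate 1 or 2 or either treated library, with adjusted p of 0.0730 to 0.179 for Adam10 and 0.0984 to 0.238 for Adam17. Mmp25 (-0.35 ± 0.42 log2) and Adam8 (-0.56 ± 0.28 log2) did not pass, nor did Timp1, with 2 and 6 reads in treated blood against 0, 0 and 2 in untreated blood.

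Untreated liver was set against untreated blood for the tissue difference without treatment. Both groups also serve as references above, so these values are not independent of the treatment comparisons. Of the 8 genes other than Timp1, Mmp14 was higher in untreated liver and the other 7 lower, where 64.3% of all genes tested passed (35.6% higher and 28.7% lower). None of the 8 overlapped, as for 73.4% of all genes. Mmp14 stood at 2.22 ± 0.57 log2 (adjusted p = 0.00700), and lost the call without untreated liver replicate 1 (adjusted p = 0.0785). Timp1 had 37 reads in untreated liver, against 2 in untreated blood, and was tested only because untreated liver passed the filter, so its higher call is no result. The log2 fold changes of the other 7 lay between -2.92 for Mmp8 and -1.35 for Adam17. Under the marker scaling 3 of these 8 passed in place of 8, and Adam8 (0.0398), Adam10 (0.30) and Adam17 (0.70) turned to the opposite sign, while 98.8% of the genes called in the whole table were higher, against 55.4% under TMM.

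Among treated mice, 3 of the 9 genes were lower in liver than in blood and 0 higher, where 21.3% of all genes tested passed (9.71% higher and 11.6% lower). None of the 9 overlapped between these groups of 2, as for 76.0% of all genes. For Timp1 this rests on 1 and 1 reads in treated liver against 2 and 6 in treated blood, and it is not read. Over all called genes, 45.5% were higher under TMM and 33.5% under the marker scaling. Mmp14 averaged 0.507 ± 0.179 CPM in treated liver and 5.98 ± 0.579 CPM in treated blood (SD, n = 2 each; -3.56 ± 0.65 log2, adjusted p = 0.00501). Adam17 stood at -0.79 ± 0.16 log2 (adjusted p = 0.00763) and Adam10 at -0.54 ± 0.17 (adjusted p = 0.0452). Mmp14 lost the call without treated liver replicate 2 (adjusted p = 0.0656), Adam10 without any one of the 4 libraries (0.186 to 0.225) and Adam17 without treated liver replicate 1 or either blood library (0.0561 to 0.0838). Fitted on these 4 libraries alone, Timp1 was not tested and all 8 others passed. Adam8, at 829 and 1002 CPM in treated liver, against 494 and 501 CPM in treated blood, missed the threshold (0.88 ± 0.30 log2, adjusted p = 0.0669).

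The difference between the treatment effects in liver and in blood (liver minus blood) passed for all 8 genes other than Timp1, where 54.7% of all genes passed (23.3% positive and 31.4% negative). Timp1 passed as well, but through the filter described above. On the log2 scale it was 3.72 ± 0.68 for Mmp8, 3.26 ± 0.49 for Timp2, 3.02 ± 0.63 for Mmp25, 2.96 ± 0.42 for Adam8 and 2.81 ± 0.37 for Mmp9, with adjusted p of 0.000266 to 0.00314. Adam10 stood at 1.20 ± 0.23 (adjusted p = 0.00182). Adam17, at 0.56 ± 0.21, passed narrowly (adjusted p = 0.0493) and lost the call without any one of 7 of the 9 libraries. Mmp14 had the opposite sign, at -5.78 ± 0.87 (adjusted p = 0.000521). Under the marker scaling Mmp8 stood at 1.30, adjusted p = 0.0235, Mmp14 at -8.02, Mmp9 at 0.48, adjusted p = 0.0868, and Mmp25 at 0.62, adjusted p = 0.203, while Adam10 (-1.06) and Adam17 (-1.71) turned negative. Of the genes called, 42.6% were positive under TMM and 2.44% under that scaling.

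The antibody libraries were compared with the isotype libraries for the dependence of these genes on each blocked cytokine. The 5 comparisons share the same 3 isotype libraries. These differed among themselves: isotype replicate 1 had more Adam8 (3261, 1428 and 1432 CPM in replicates 1, 2 and 3) and Adam17 (182, 80.4 and 93.8 CPM), and replicate 2 more Mmp14 (2.05, 12.9 and 4.03 CPM).

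In anti-GCF libraries 2 of the 8 genes other than Timp1 rose and 5 fell, where 57.8% of all genes tested passed (31.6% higher and 26.3% lower). The same 7 did not overlap between the groups, as for 66.8% of all genes. Mmp8 was at 468, 485 and 258 CPM in anti-GCF libraries, against 3939, 5041 and 3901 CPM in isotype libraries. Every anti-GCF library lay far below every isotype library (-3.41 ± 0.43 log2, adjusted p = 2.37e-05). Mmp25 was at 67.8, 78.7 and 53.8 CPM in anti-GCF libraries, against 405, 528 and 382 CPM in isotype libraries (-2.71 ± 0.34 log2, adjusted p = 2.60e-05). Adam8 was at 277, 372 and 326 CPM in anti-GCF libraries, against 3261, 1428 and 1432 CPM in isotype libraries (-2.65 ± 0.38 log2, adjusted p = 6.31e-05). These are the genes whose promoters are printed above. Mmp9 was at 1284, 1289 and 970.3 CPM in anti-GCF libraries, against 4431, 5199 and 4033 CPM in isotype libraries (-1.95 ± 0.29 log2, adjusted p = 8.25e-05). Timp2 was at 103, 214 and 137 CPM in anti-GCF libraries, against 330.5, 390 and 321 CPM in isotype libraries (-1.20 ± 0.31 log2, adjusted p = 0.00435). Both were below the isotype range in all 3 libraries.

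Mmp14 and Adam10 rose with anti-GCF. Mmp14 was at 31.5, 35.5 and 53.1 CPM in anti-GCF libraries, against 2.05, 12.9 and 4.03 CPM in isotype libraries (2.65 ± 0.68 log2, adjusted p = 0.00547). Adam10 was at 178, 201 and 198 CPM in anti-GCF libraries, against 107, 136 and 112 CPM in isotype libraries (0.70 ± 0.19 log2, adjusted p = 0.00555). The groups were apart for both genes. Timp1 was at 0.917, 5.20 and 1.62 CPM in anti-GCF libraries, against 0.118, 0.303 and 0.149 CPM in isotype libraries (3.67 ± 1.25 log2, adjusted p = 0.0253). It passed the filter of this table through 5 libraries of the anti-GCF, anti-IL10 and anti-IL35 groups and no isotype library, so its higher call is not counted as a result. The call was lost without anti-GCF replicate 2 (adjusted p = 0.101) and without isotype replicate 1 (0.0738), 2 (0.0531) or 3 (0.0710). Adam17, at 129.5, 137 and 151 CPM in anti-GCF libraries, against 182, 80.4 and 93.8 CPM in isotype libraries, did not pass (0.23 ± 0.28 log2, adjusted p = 0.500), but did without isotype replicate 1 (0.68, adjusted p = 0.0285). All 13 Kupffer cell and macrophage markers were higher in anti-GCF libraries, where 31.6% of all genes tested were higher, with a median log2 fold change of 4.47 for the markers. Their part in the levels of Mmp14, Adam10 and Timp1 was not tested.

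Scaled to the neutrophil markers, Mmp8 (-1.88, adjusted p = 0.000111), Mmp25 (-1.19, adjusted p = 0.000429) and Adam8 (-1.16, adjusted p = 0.00551) passed as lower in anti-GCF libraries. Mmp9 at -0.42 no longer passed (adjusted p = 0.102) and Timp2 turned to 0.29 (adjusted p = 0.263). Adam10 (2.23), Adam17 (1.74) and Mmp14 (4.23) passed as higher. The median over all genes shifted by 1.52, and 94.2% of the genes called were higher, against 54.6% under TMM. The log2 ratio of Mmp8 to Mmp9 per kb was -0.91, -0.86 and -1.36 in anti-GCF libraries, against 0.38, 0.50 and 0.50 in isotype libraries. No anti-GCF library reached the isotype range.

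**Figure D3:**
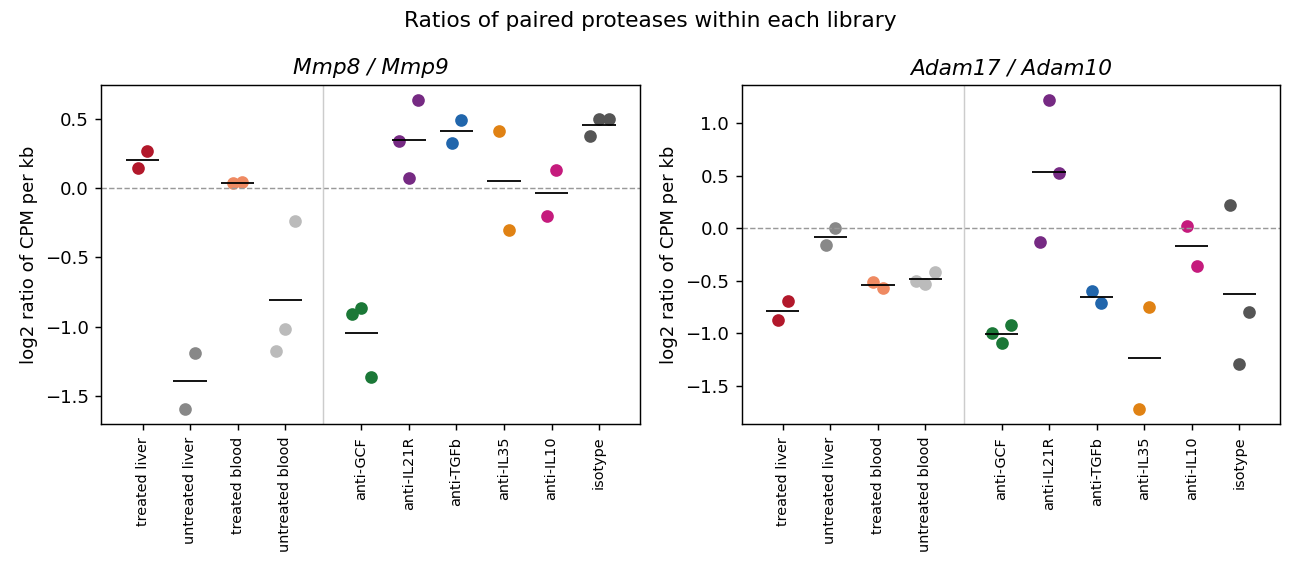
Log2 ratio of Mmp8 to Mmp9 (left) and of Adam17 to Adam10 (right) within each library, both in CPM per kilobase of exon; points are libraries and bars are group means. Mmp8 over Mmp9 is below 0 in all libraries of untreated liver, untreated blood and anti-GCF, and Adam17 over Adam10 reaches 1.22 in anti-IL21R replicate 2.

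**Figure D4:**
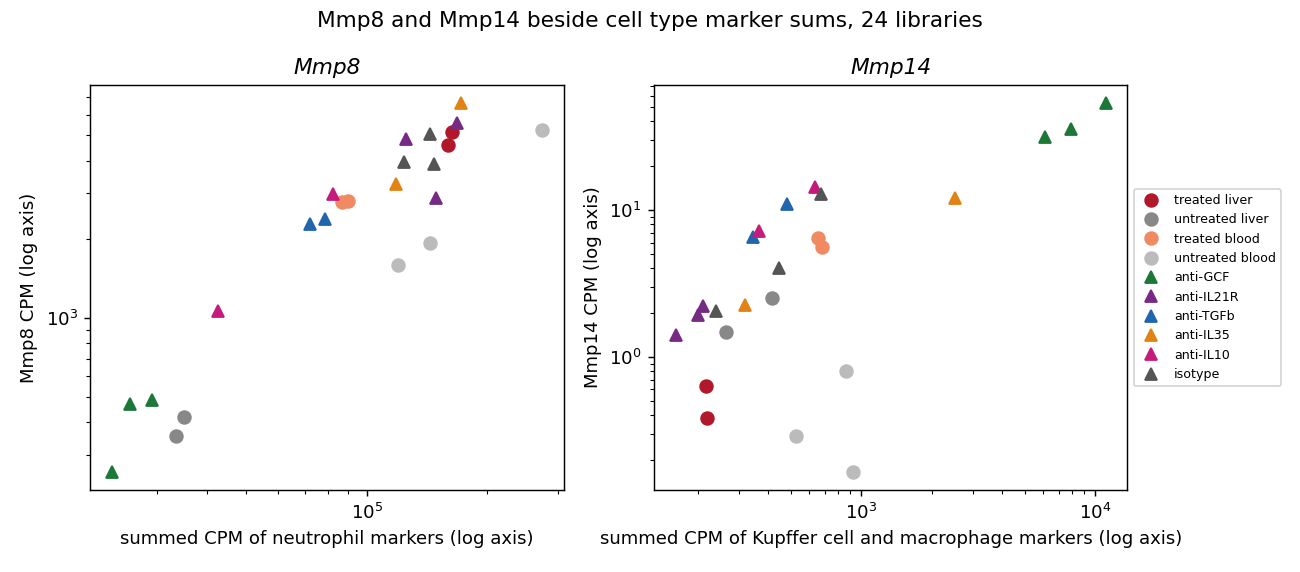
Mmp8 against the summed level of 20 neutrophil markers (left) and Mmp14 against the summed level of 13 Kupffer cell and macrophage markers (right), in CPM on log axes, with 1 point per library. The anti-GCF libraries sit at the low end for Mmp8 and at the high end for Mmp14, whereas untreated blood libraries have little Mmp14, at 0.165, 0.801 and 0.289 CPM, beside marker sums of 529 to 924 CPM.

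In anti-IL21R libraries 0 of the 9 genes passed, where 2.23% of all genes tested passed (1.08% higher and 1.15% lower), and 3 had an unadjusted p under 0.05. Groups overlapped for all 9, while 25.5% of all genes did not overlap. Adam8 was at 2619, 5902 and 4869 CPM in anti-IL21R libraries, against 3261, 1428 and 1432 CPM in isotype libraries. Isotype replicate 1 reached into the anti-IL21R range (1.13 ± 0.36 log2, adjusted p = 0.0930). Adam17 was at 167, 240.3 and 221 CPM in anti-IL21R libraries, against 182, 80.4 and 93.8 CPM in isotype libraries (0.82 ± 0.29 log2, adjusted p = 0.115). Without isotype replicate 1, Adam8 stood at 1.64, adjusted p = 0.0114, and Adam17 at 1.27, adjusted p = 0.00848. Both passed in DESeq2 with all libraries (adjusted p = 0.0200 and 0.0495). Mmp14 was at 2.23, 1.41 and 1.92 CPM in anti-IL21R libraries, against 2.05, 12.9 and 4.03 CPM in isotype libraries (-1.79 ± 0.70 log2, adjusted p = 0.158, and 0.0431 in DESeq2). The log2 differences of Mmp8, Mmp9 and Mmp25 had 95% intervals of -0.79 to 0.88, -0.47 to 0.73 and -0.72 to 0.65. Of the genes called, 48.3% were higher under TMM, 58.6% in DESeq2, 58.9% under RLE, 33.3% under upper-quartile scaling, 67.0% in limma-voom and 5.66% under the marker scaling.

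In anti-TGFb libraries Timp2 fell and no other member passed, where 27.6% of all genes tested passed (17.5% higher and 10.0% lower), and 3 members had an unadjusted p under 0.05. It was at 168 and 173 CPM in anti-TGFb libraries, against 330.5, 390 and 321 CPM in isotype libraries (-1.02 ± 0.35 log2, adjusted p = 0.0433), and lost the call without any one of the 5 libraries (adjusted p of 0.0628 to 0.190). In all, 5 of the 9 lay below every isotype library, against 59.2% of all genes that did not overlap. Mmp8 was at 2294 and 2388 CPM in anti-TGFb libraries, against 3939, 5041 and 3901 CPM in isotype libraries (-0.87 ± 0.44 log2, adjusted p = 0.158). Mmp25 was at 230.2 and 213 CPM in anti-TGFb libraries, against 405, 528 and 382 CPM in isotype libraries (-0.98 ± 0.37 log2, adjusted p = 0.0613). Mmp9 was at 2674 and 2474 CPM in anti-TGFb libraries, against 4431, 5199 and 4033 CPM in isotype libraries (-0.82 ± 0.32 log2, adjusted p = 0.0697). The neutrophil markers summed to 72157 to 78714 CPM in anti-TGFb libraries. Scaled to them, Mmp8 stood at -0.10, Mmp25 at -0.21, Mmp9 at -0.0552 and Timp2 at -0.26, adjusted p = 0.454. Of the genes called, 63.6% were higher under TMM and 99.4% under that scaling.

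In anti-IL10 libraries the member called was again Timp2, at 106 and 223 CPM in anti-IL10 libraries, against 330.5, 390 and 321 CPM in isotype libraries (-1.08 ± 0.35 log2, adjusted p = 0.0485), where 17.6% of all genes tested passed (10.6% higher and 6.98% lower), and 2 members had an unadjusted p under 0.05. The call was lost without any one isotype library (0.0631 to 0.120) and without anti-IL10 replicate 1 (adjusted p = 0.443). In all, 4 of the 9 lay below every isotype library, against 48.7% of all genes that did not overlap. The 9 include Timp1, which passed the filter partly through this group and through no isotype library, and its test is not read. The 2 anti-IL10 libraries differed, with Mmp8 at 1066 and 2987 CPM, Mmp9 at 1788 and 3981 CPM and Mmp25 at 145 and 371 CPM in replicates 1 and 2. Replicate 1 was the lower one for each, and the neutrophil markers summed to 42462 to 82268 CPM over the pair, again with replicate 1 the lower. Without replicate 2, 4 of the 9 genes passed, among them Mmp8 at -1.99, adjusted p = 0.0200. Over all called genes, 60.4% were higher under TMM, 49.1% in DESeq2 and 98.3% under the marker scaling.

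In anti-IL35 libraries 0 of the 9 genes passed, where 9.33% of all genes tested passed (4.81% higher and 4.51% lower), and 2 had an unadjusted p under 0.05. The 9 include Timp1, whose test is not read, because it passed the filter partly through this group and through no isotype library. In all, 2 of the 9 lay above every isotype library, against 33.6% of all genes that did not overlap. Adam10 was at 168 and 163 CPM in anti-IL35 libraries, against 107, 136 and 112 CPM in isotype libraries (0.49 ± 0.21 log2, adjusted p = 0.151). Mmp9 was at 7281 and 5854 CPM in anti-IL35 libraries, against 4431, 5199 and 4033 CPM in isotype libraries (0.53 ± 0.31 log2, adjusted p = 0.290). These are the members that did not overlap. Timp1 was at 0.0794 and 5.56 CPM in anti-IL35 libraries, against 0.118, 0.303 and 0.149 CPM in isotype libraries (3.79 ± 1.33 log2, adjusted p = 0.0960). Anti-IL35 replicate 2 held the high value, and of the 2 anti-IL35 libraries it was the one with the higher Kupffer cell and macrophage marker sum, 2507 CPM, whose part was not tested. That library is also among those through which Timp1 passed the filter. Without it, 1 anti-IL35 library with 2 reads is left and no fold is read. Of the genes called, 51.6% were higher under TMM, 34.5% under upper-quartile scaling and 9.66% under the marker scaling.

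**Figure D5:**
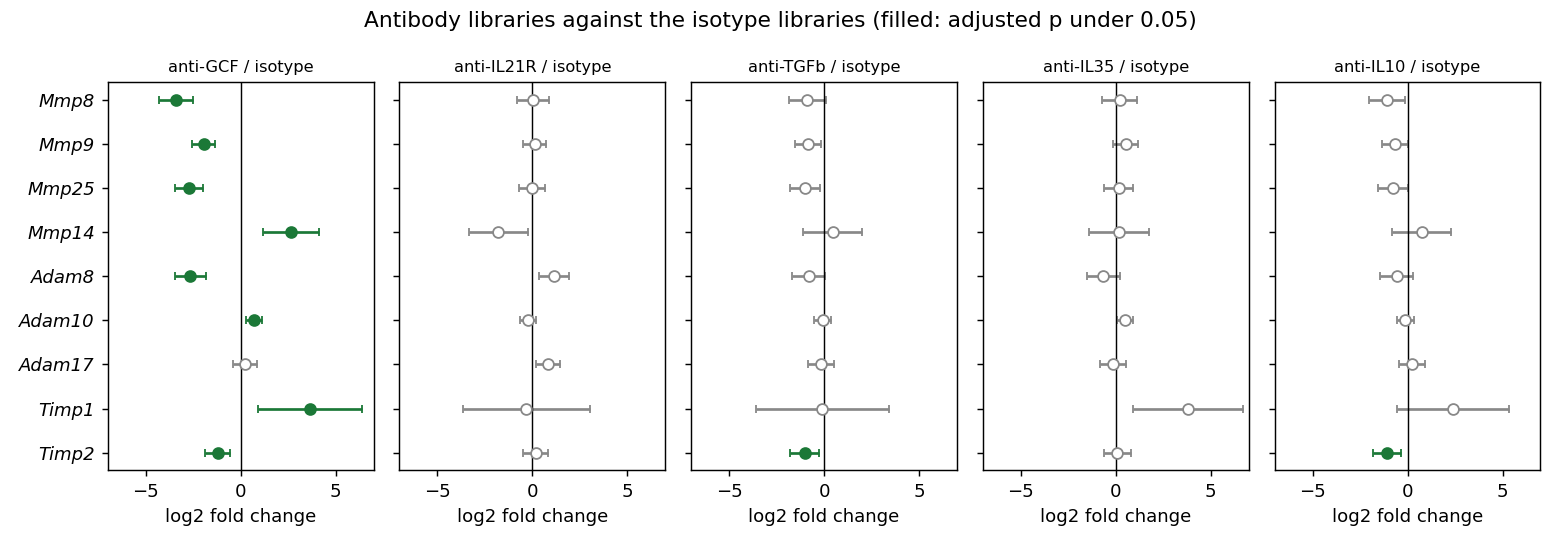
Log2 fold change of the 9 genes in each antibody group over the isotype libraries, with 95% intervals from the fit; filled points passed an adjusted p of 0.05 and open points did not. Anti-GCF shows 8 filled points, Timp1 included, anti-TGFb and anti-IL10 show Timp2, and anti-IL21R and anti-IL35 show 0.

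Across the 9 libraries of the first table, Pearson's r of log2 CPM was 0.98 for Mmp8 and Mmp25, 0.92 for Mmp8 and Mmp9 and 0.97 for Mmp8 and Adam8. Across the 15 antibody libraries it was 0.99 for Mmp8 and Mmp25. Adam10 and Adam17, close relatives that share substrates, were at r = 0.97 in the first table and -0.39 in the antibody table. These values describe libraries that share groups and treatment. The log2 ratio of Adam17 to Adam10 per kb was -0.13, 1.22 and 0.53 in anti-IL21R libraries, against 0.22, -1.30 and -0.80 in isotype libraries. The same 3 libraries, anti-IL21R replicates 2 and 3 and isotype replicate 1, held the 3 highest levels of both Adam8 and Adam17, and all 3 were among the 4 lowest for Adam10.

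Among 5934 genes with at least 10 CPM on average in both tables, those most like each member were ranked by the smaller of their Pearson correlations over the 9 and the 15 libraries, given here in parentheses. Mmp8 was most like Plcl2 (0.98), Depdc1b (0.98) and Rps6ka2 (0.98). Mmp9 was most like Alox5 (0.99), Pglyrp1 (0.98) and E2f2 (0.98), of which Alox5 encodes the lipoxygenase of leukotriene synthesis and Pglyrp1 a peptidoglycan-binding granule protein. Mmp25 was most like Ifitm6 (0.99), Agap1 (0.98) and Mtmr3 (0.98). Mmp14 was most like C1qb (0.88), Cd2ap (0.86) and Sdf2l1 (0.86), where C1qb is a complement chain made by macrophages. Adam8 was most like Pdlim7 (0.98), Dgat1 (0.98) and Rnf40 (0.97), Adam10 like Glg1 (0.95), Arhgap18 (0.94) and Tpp1 (0.93) and Adam17 like Lpar6 (0.88), Nfkb2 (0.87) and Mfap3 (0.87). Timp2 was most like Arpc3 (0.95), Mff (0.95) and Itgb2 (0.95), and Timp1 like Psen2 (0.80), Cog4 (0.80) and Nbr1 (0.80). The Timp1 values rest on few reads and are not read. It had 2 reads in treated liver, 37 in untreated liver, 8 in treated blood, 2 in untreated blood and 19 in isotype libraries.

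Other genes of the system were taken from lists by role, and the share of all genes called in the same comparison stands beside each count, in parentheses after the first list. A count near that share is no result about the list. Levels and fold changes of the list genes are given under TMM only. The neutrophil-marker scaling shifted the median over all genes by -1.62 in treated against untreated liver and by 1.52 with anti-GCF. Of 16 further MMP genes, 5 were tested in the first table, and 1 was higher and 2 lower in treated than in untreated liver, where 64.1% of all genes were called. Mmp19, a secreted MMP, averaged 1.64 ± 0.413 CPM in treated liver and 35.32 ± 1.45 CPM in untreated liver (SD, n = 2 each; -4.43 ± 0.33 log2, adjusted p = 6.04e-06). In blood it went the other way, at 32.9 ± 4.27 CPM in treated blood (n = 2) and 5.70 ± 1.75 CPM in untreated blood (n = 3; 2.53 ± 0.26 log2, adjusted p = 0.000498). Mmp14 had these directions too. In anti-GCF libraries 4 of 9 tested were higher and 1 lower, where 57.8% of all genes were called. Among the higher genes was Mmp12, the macrophage elastase, at 119 ± 60.4 CPM in anti-GCF libraries and 7.82 ± 3.82 CPM in isotype libraries (SD, n = 3 each; 3.92 ± 0.79 log2, adjusted p = 0.00119).

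Of 10 further ADAM genes, 7 were tested in the first table, and 2 were higher and 2 lower in treated than in untreated liver (64.1% of all genes). Adam15 averaged 109.6 ± 5.59 CPM in treated liver and 25.8 ± 3.59 CPM in untreated liver (2.09 ± 0.43 log2, adjusted p = 0.00205). In anti-GCF libraries 2 of 9 were higher and 1 lower (57.8% of all genes). Adam9 averaged 64.3 ± 12.3 CPM in anti-GCF libraries and 16.5 ± 0.905 CPM in isotype libraries (1.96 ± 0.23 log2, adjusted p = 1.61e-05). Adamdec1, an ADAM-like gene of macrophages and dendritic cells, averaged 107 ± 22.1 CPM in anti-GCF libraries and 5.05 ± 3.44 CPM in isotype libraries (4.39 ± 0.73 log2, adjusted p = 0.000346).

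Of 8 tested partners of ADAM10 and ADAM17, 4 were higher and 2 lower in treated than in untreated liver (64.1% of all genes). Rhbdf2, which encodes iRhom2, the carrier that ADAM17 needs to reach the surface, averaged 124 ± 13 CPM in treated liver and 51.3 ± 3.64 CPM in untreated liver (1.28 ± 0.18 log2, adjusted p = 0.000211). Tspan5, a tetraspanin that escorts ADAM10, averaged 48.2 ± 1.99 CPM in treated liver and 14.1 ± 3.37 CPM in untreated liver (1.77 ± 0.23 log2, adjusted p = 0.000118). In anti-GCF libraries 5 of 8 were higher and 2 lower (57.8% of all genes). The 2 lower ones were Tspan5 (-1.09 ± 0.21 log2, adjusted p = 0.000567) and Rhbdf2 (-1.14 ± 0.22 log2, adjusted p = 0.000641). Tspan15, another ADAM10 tetraspanin, averaged 23.5 ± 8.99 CPM in anti-GCF libraries and 1.41 ± 0.620 CPM in isotype libraries (4.04 ± 0.70 log2, adjusted p = 0.000422).

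Of 5 further inhibitors, 3 were tested in the first table, with 1 higher and 1 lower in treated than in untreated liver (64.1% of all genes). Reck, a membrane-anchored MMP inhibitor, averaged 46.7 ± 3.65 CPM in treated liver and 3.67 ± 0.0565 CPM in untreated liver (3.67 ± 0.53 log2, adjusted p = 0.000248). It averaged 5.42 ± 2.13 CPM in anti-GCF libraries and 46.3 ± 6.69 CPM in isotype libraries (-3.09 ± 0.36 log2, adjusted p = 1.79e-05). Pzp, a plasma protease inhibitor made by the liver, averaged 1.87 ± 0.388 CPM in treated liver and 115 ± 14.9 CPM in untreated liver, in the libraries with the highest hepatocyte marker sums.

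Of 11 tested activators and partners of the MMPs, 7 were higher and 1 lower in treated than in untreated liver (64.1% of all genes). Plau, the urokinase that activates plasminogen, averaged 34.1 ± 1.92 CPM in treated liver and 4.34 ± 0.966 CPM in untreated liver (2.97 ± 0.33 log2, adjusted p = 5.42e-05). Among 12 tested with anti-GCF, 1 was higher and 6 lower (57.8% of all genes). Plaur, the urokinase receptor, averaged 361 ± 55.9 CPM in anti-GCF libraries and 2846 ± 243 CPM in isotype libraries (-2.98 ± 0.23 log2, adjusted p = 1.30e-06). Lcn2, which forms a complex with MMP9, averaged 1043 ± 396 CPM in anti-GCF libraries and 10886 ± 2081 CPM in isotype libraries (-3.38 ± 0.42 log2, adjusted p = 2.30e-05).

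Of 20 tested surface proteins known to be shed, 10 were higher and 4 lower in treated than in untreated liver (64.1% of all genes). Tnf, the substrate that gave ADAM17 its name, averaged 106 ± 4.21 CPM in treated liver and 7.84 ± 2.19 CPM in untreated liver (3.76 ± 0.29 log2, adjusted p = 7.24e-06). In anti-GCF libraries 8 of 22 were higher and 5 lower (57.8% of all genes). Il1r2, the decoy receptor for IL-1, averaged 217 ± 63.3 CPM in anti-GCF libraries and 2955 ± 375 CPM in isotype libraries (-3.77 ± 0.29 log2, adjusted p = 1.30e-06). It was also lower with anti-TGFb (-1.69 ± 0.31 log2), anti-IL35 (-1.85 ± 0.31 log2) and anti-IL10 (-1.34 ± 0.30 log2), against the same isotype libraries. Of 15 tested matrix protein genes, 3 were higher and 1 lower with anti-GCF (57.8% of all genes). Fn1, which encodes fibronectin, averaged 1489 ± 1332 CPM in anti-GCF libraries and 110.3 ± 68.0 CPM in isotype libraries (3.75 ± 0.86 log2, adjusted p = 0.00274).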

How the data were processed

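RNA of 24 neutrophil preparations was sequenced. The labels' protocols name RNeasy Mini for the RNA and TruSeq Stranded mRNA for the libraries. Bowtie2 2.2.5, STAR 2.5.3a, Partek, DESeq2 and the build mm10 appear in the submitters' processing notes, which give no roles. The counting tool, annotation and strand setting are not given in the sources used here.

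The authors deposited expected counts per gene for 9 libraries, which were rounded to whole numbers here. For the 15 antibody libraries the authors deposited raw counts per gene. Each table had its own analysis. The filter was filterByExpr (16719 and 16812 genes left), and counts were scaled by TMM and tested with edgeR 4.0.16 (R 4.3.3) by the robust quasi-likelihood F test, all libraries of a table in 1 fit with group as the only term. Adjusted p-values are Benjamini-Hochberg over all genes tested. The standard error is the fold change divided by the square root of F. Where a group has 3 counts or fewer, a fitted value is printed only as the record of a fit and is read as no fold. Counting intervals cover counting error only, since no molecular identifiers are stated. CPM per kilobase uses the union of exons in GENCODE.

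Named genes are the 9 members, a selection of the up to 3 genes with the smallest adjusted p per list and comparison, and the 3 genes most like each member. The members, lists and rules were chosen with earlier results of these data known. Alternatives were other scalings, DESeq2 1.42.0, limma-voom (limma 3.58.1), other filters, a replicate block, fits of the compared groups only and leaving out each library. Fits without the untreated liver or the anti-GCF libraries were added after seeing the data. The fit was tested on simulated data.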

Additional observations from a re-analysis of the deposited data

Results flagged for a closer look

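The treatment effect differed between liver and blood by the interaction test for the 8 genes other than Timp1, where 54.7% of all genes tested passed. On the log2 scale, treatment in liver minus treatment in blood was 3.72 for Mmp8, 2.81 for Mmp9, 3.02 for Mmp25, 2.96 for Adam8, 1.20 for Adam10, 0.56 for Adam17 and 3.26 for Timp2. It was -5.78 for Mmp14. Timp1 had a fitted value of -5.83, which rests on 2 reads in treated liver and 2 in untreated blood and is no measure of size, and it was tested only because untreated liver passed the filter, so its passing is not counted. The neutrophil-marker scaling turned Adam10 to -1.06 and Adam17 to -1.71.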

How the results depend on the processing

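The count of members passing in either direction, Timp1 included, stayed within 1.5 times under the alternatives run for treated against untreated liver, the difference of effects and anti-GCF. This count does not show which members passed or their direction, and both changed under neutrophil-marker scaling. Adam17 then passed as lower in treated than in untreated liver. In the difference of effects Mmp9 and Mmp25 no longer passed, and Adam10 and Adam17 turned negative. With anti-GCF Mmp9 and Timp2 no longer passed, and Adam17 did. Treated against untreated blood gave 5, but 3 under fitting the compared groups alone and 1 to 6 leaving out single libraries. Treated liver against treated blood gave 3, but 5 under the replicate block by title number, 8 under fitting the compared groups alone and 1 leaving out any single library. Untreated liver against untreated blood gave 9, but 4 under neutrophil-marker scaling. Anti-IL21R gave 0, but 3 under DESeq2 and 0 to 2 leaving out single libraries. Anti-TGFb gave 1, but 3 under DESeq2, 0 under the replicate block by title number, 4 under fitting the compared groups alone and 0 leaving out any single library. Anti-IL35 gave 0, but 1 under DESeq2 and 0 to 1 leaving out single libraries. Anti-IL10 gave 1, but 2 under neutrophil-marker scaling and DESeq2, 0 under no filter on low counts, the replicate block by title number, fitting the compared groups alone and a fit without the anti-GCF libraries and 0 to 4 leaving out single libraries. The cause was not tested.

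Some log2 fold changes turned sign. With upper-quartile scaling, they turned to Mmp8 0.00960 in treated against untreated blood and Timp2 -0.00586 in anti-IL35. With neutrophil-marker scaling, they turned to Adam17 -0.64 in treated against untreated liver, Mmp8 0.73, Mmp25 0.43 and Adam8 0.16 in treated against untreated blood, Adam8 0.0398, Adam10 0.30 and Adam17 0.70 in untreated liver against untreated blood, Adam10 -1.06 and Adam17 -1.71 in the difference of effects, Timp2 0.29 in anti-GCF, Mmp8 -0.23, Mmp9 -0.15 and Timp2 -0.11 in anti-IL21R, Adam10 0.71, Adam17 0.57 and Timp1 0.69 in anti-TGFb, Mmp8 -0.0174, Mmp25 -0.0785, Mmp14 -0.0515 and Timp2 -0.14 in anti-IL35 and Adam8 0.10 and Adam10 0.61 in anti-IL10. With limma-voom, they turned to Mmp8 0.14 in treated against untreated blood and Mmp14 -0.0194 in anti-IL35. With filter of 5 CPM in 2 libraries, they turned to Mmp8 0.0244 in treated against untreated blood. With RLE scaling, they turned to Mmp25 0.00748 in anti-IL21R. With DESeq2, they turned to Mmp25 0.00755 in anti-IL21R. Leaving out single libraries turned signs only of values that had not passed, with ranges of Mmp25 -0.65 to 0.33 and Mmp8 -0.37 to 0.66 in treated against untreated blood, Mmp25 -0.26 to 0.13, Mmp8 -0.16 to 0.28, Mmp9 -0.0956 to 0.27, Timp1 -0.69 to 0.25 and Timp2 -0.0630 to 0.33 in anti-IL21R, Adam10 -0.13 to 0.0461, Adam17 -0.40 to 0.27 and Timp1 -0.79 to 0.46 in anti-TGFb, Adam17 -0.67 to 0.31, Mmp14 -1.50 to 1.23, Mmp25 -0.32 to 0.49, Mmp8 -0.40 to 0.63, Timp1 -1.29 to 4.77 and Timp2 -0.15 to 0.29 in anti-IL35, Adam10 -0.27 to 0.0544 and Timp1 -0.59 to 3.31 in anti-IL10.

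By the rule used (same numbers given by the labels as shared, or at least 3 pairs, each with a correlation over 0.1), the title numbers did not pair the samples. Same-numbered libraries correlated at 0.0401 to 0.220 for anti-GCF, where 3 of 3 correlated best with their own number, and at -0.213 to -0.00593 for anti-IL21R, where 0 of 3 did. The other comparisons had at most 2 pairs each, too few for the part of the rule that asks for 3. Their title numbers gave 0.252 and 0.244 for anti-TGFb, 0.287 and 0.261 for anti-IL35 and -0.0787 and 0.0209 for anti-IL10. In the first table they gave -0.0659 to 0.0621. The numbers in the library names differ from the title numbers for some libraries. They gave -0.244 and 0.056 for anti-TGFb and 0.287 and 0.0874 for anti-IL35. With the replicate block by title number, Timp2 had an adjusted p of 0.0548 in anti-TGFb and 0.0582 in anti-IL10. Fitted values of Timp1 that rest on a group with 3 counts or fewer, such as that of anti-IL35 without replicate 2, are no measure of size. Fitting the compared groups alone was not run for the difference of effects, which uses all 4 groups. Where 1 library remained in a group, its spread was taken from the other groups. Depth limits Timp1, with 2 reads in treated liver.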

Other observations

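Mpo, Elane, Prtn3 and Ctsg, genes of the azurophil granule, an early granule class, were counted beside the members. The list also held Ms4a3, which does not encode a granule protein. Of the 5 genes Mpo, Elane, Prtn3, Ctsg and Ms4a3, 4 were higher and 0 lower in treated than in untreated blood, where 17.4% of all genes were higher and 16.2% lower, with a median log2 fold change of 2.85, whereas Mmp8 did not pass there. These 4 were low in untreated blood, with means from 0.496 CPM for Elane to 0.671 CPM for Ctsg. With anti-GCF, 5 of 5 were lower than in isotype libraries (median -3.66), where 26.3% of all genes were lower. Ms4a3, Ctsg, Elane and Prtn3 were also lower with anti-TGFb (10.0% of all genes lower) and with anti-IL10 (6.98%), against the same isotype libraries. Ctsg alone was lower with anti-IL21R (1.15%) and anti-IL35 (4.51%). All of these values are under TMM, and those under the neutrophil-marker scaling are not given. That scaling shifted the median over all genes by 0.625 in treated against untreated blood and by 1.52 with anti-GCF. The shift was 0.759 with anti-TGFb and 0.748 with anti-IL10.

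The log2 ratio of Mmp9 to its inhibitor Timp2 per kb was 4.50 and 4.44 in treated liver and 4.27 and 4.33 in untreated liver. It was 4.52 and 4.57 in treated blood and 4.16, 4.07 and 3.72 in untreated blood, and 3.78, 2.73 and 2.96 in anti-GCF libraries and 3.88, 3.88 and 3.79 in isotype libraries.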
